A study of Mus musculus with 20 samples.

Results

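Peaks of N6-methyladenosine (m6A) that carry the name of a microRNA or a small nucleolar RNA (snoRNA) were taken from 2 tables of m6A peaks in mouse thymocytes. They were every peak whose gene symbol began with Mir and a digit, Mirlet7, or Snord, Snora or Snhg and a digit. The table for CD4+ CD8+ double-positive (DP) cells held 263 such peaks of 13450, or 1.96%, under 163 names. The table for invariant natural killer T (iNKT) cells held 333 of 12542, or 2.66%, under 193 names. Both tables held peaks of 93 of these names.

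The cells came from the thymus of C57BL/6 mice aged 6 to 8 weeks. DP cells were sorted as 7AAD- CD1d-Tet- CD4+ CD8+ and iNKT cells as 7AAD- CD1d-Tet+ TCRbeta+, each from wild-type (WT) mice and from Mettl3fl/flCD4-cre mice. In the latter, Cre driven by Cd4 regulatory sequences deletes the floxed Mettl3 gene in T-lineage cells. RNA immunoprecipitated for m6A was sequenced beside its input in 20 libraries. Of these, 12 were of iNKT cells (3 per genotype and fraction) and 8 of DP cells (2 per genotype and fraction). The protocol described takes polyadenylated RNA in fragments of about 150 nt and an antibody to m6A. The sources used here do not say which protocol, m6A-seq or m6A-LACE-seq, was used for which cell type. The tables give 1 value per peak for a whole comparison and none per library. The spread between animals, the depth behind a peak and the loss of Mettl3 itself were therefore not measured here, and each fold change and false discovery rate (FDR) below is the value in the authors' deposited table for that cell type. Of 5 iNKT marker genes, 5 had a peak in the iNKT table and 2 in the DP table, 4 of 9 DP markers had one in each table, and of 7 markers of other thymus cells 0 had one in the DP table and 2 in the iNKT table.

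METTL3 is the catalytic subunit of the complex that writes m6A on nascent messenger RNA, most often near stop codons and in 3′ untranslated regions (UTRs). MicroRNAs are cut by Drosha and Dgcr8 from hairpins that often lie in introns of other genes, and they pair with messenger RNAs through the seed, bases 2 to 8. The snoRNAs are likewise mostly released from introns of host genes: C/D snoRNAs (Snord) guide 2′-O-methylation and H/ACA snoRNAs (Snora) guide pseudouridylation. Snhg genes are long non-coding RNAs whose introns hold snoRNAs. A peak measured on spliced, polyadenylated RNA can thus bear the name of a small RNA and lie in an exon of the host.

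The mature sequences below, from RefSeq (GRCm38.p6, the mm10 assembly), are a selection of those that were themselves under a peak. Capitals mark the seed. Mature sequences were listed for 204 of the 218 microRNA names. The first 3 lie wholly within an iNKT peak that was higher at FDR under 0.05, and the next 7 lie within an iNKT peak that did not pass. Not printed are miR-8115, also wholly within an iNKT peak that did not pass, and miR-6935-3p, miR-5114, miR-6340 and miR-7654-3p, wholly within DP peaks.
miR-8114: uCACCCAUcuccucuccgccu
miR-1982-3p: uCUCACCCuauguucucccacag
miR-6236: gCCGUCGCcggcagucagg
miR-671-5p: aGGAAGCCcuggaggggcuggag
miR-671-3p: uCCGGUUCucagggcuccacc
miR-8119: gAGGAGAGggagcuaggguc
miR-5125: uCUGCCUGggauuuccuugu
miR-6385: gCAAGGAUgacagagaggaag
miR-1306-5p: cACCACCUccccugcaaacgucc
miR-1306-3p: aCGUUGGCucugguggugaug
These 10 sequences had 10 different seeds. The letters GGACU, a common context of m6A in messenger RNA, were in 0 of the 15 listed hairpins that lay under a peak of their own name on the same strand, in 13 of 190 hairpins of all the names (6.84%) and in 82 of 1005 mouse hairpins listed (8.16%). With the reverse complement AGUCC counted too, the shares were 13.3%, 14.7% and 14.1%.

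Most peaks did not touch the gene that named them. Of the DP peaks 10 (3.8%) overlapped the named gene on the same strand, and of the iNKT peaks 28 (8.41%). Of those, 3 and 13 were counted although RefSeq's tables here list no strand for the gene. Among the peaks whose named gene was found on their chromosome (260 and 329), the distance to it had a median of 2410 nt (DP) and 2570 nt (iNKT), and reached 186851 and 508955 nt. The named gene lay inside the gene that the peak overlapped in 186 DP cases (70.7%) and 227 iNKT cases (68.2%), and outside it in 45 and 55.

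By coordinates, 237 of the DP peaks and 288 of the iNKT peaks lay in a protein-coding gene, and 12 and 22 in a long non-coding RNA. The peaks fell in 172 host genes in DP cells and 191 in iNKT cells. Of these hosts, 109 (63.4%) and 108 (56.5%) had no peak under their own symbol in that table. Whether they had further peaks under the name of another neighbour was not counted. A DP peak in Scaf1 listed as Mir7054, for example, overlapped an iNKT peak listed as Irf3. Where the authors' annotation of a peak cited the exon of another gene, that gene was taken as the host in 71 of 72 cases (DP) and 104 of 106 (iNKT). The ranking of hosts put the annotation's gene first wherever it overlapped the peak, so this is no independent check of the hosts. The hosts with the most peaks were Srcap, a chromatin remodeller listed as Snora30 (6 DP and 12 iNKT peaks), and Prdm2, a zinc-finger protein with a histone methyltransferase domain, listed as Mir7021 (6 and 8). Slfn9, listed as Mir7679, also had 6 DP peaks but 1 iNKT peak.

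The annotation class differed from that of all peaks. In DP cells 166 peaks (63.1%, Wilson 95% interval 57.1 to 68.7%) were in a 3′ UTR, against 45.5% of all DP peaks, and 5 (1.9%) in a 5′ UTR, against 8.39%. In iNKT cells 171 (51.4%, interval 46 to 56.7%) were in a 3′ UTR, against 45.2%, and 12 (3.6%) in a 5′ UTR, against 14.7%. The intervals cover counting error only and treat peaks of 1 host as separate. The median exonic length was 299 nt in DP cells, against 241 nt for all peaks, and 180 nt in iNKT cells, against 181 nt. The median fold enrichment of immunoprecipitate over input was 4.39 against 4.7 in DP cells and 8.01 against 8.32 in iNKT cells.

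**Figure D1:**
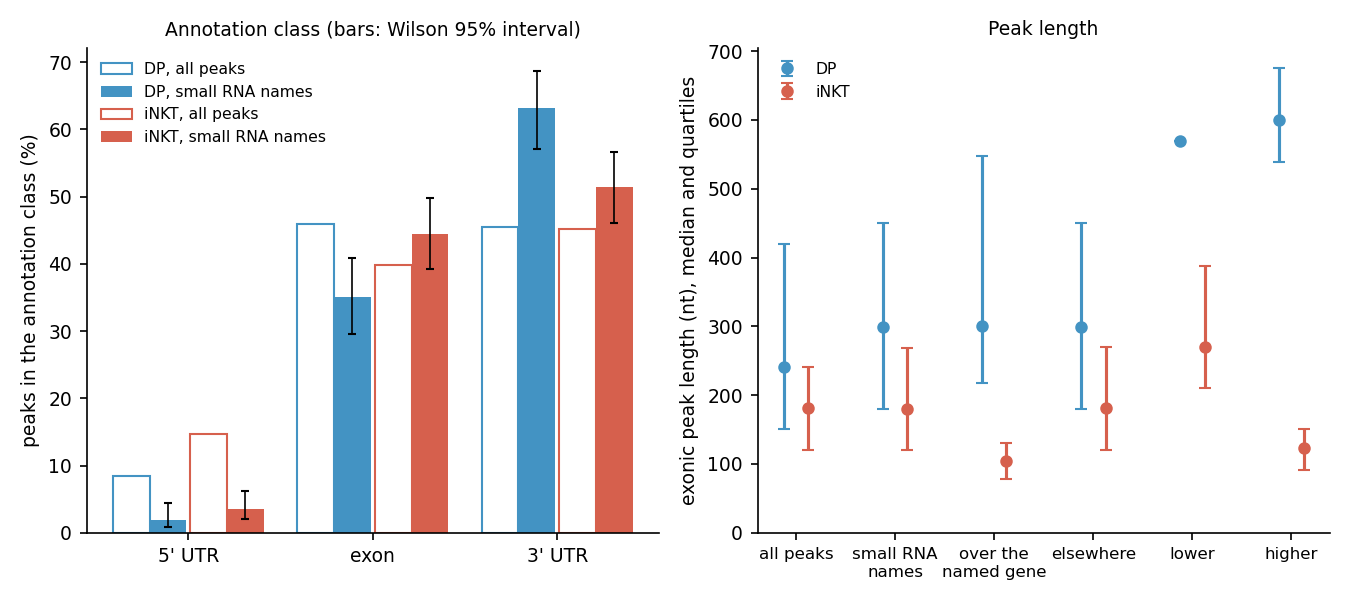
Left, the percentage of peaks in each annotation class, for all peaks (open bars) and for peaks with a small RNA name (filled bars, with Wilson 95% intervals). Right, the median exonic length in nt with the quartiles as bars. The filled 5′ UTR bars, 1.9% and 3.6%, are below the open ones, and iNKT peaks over the named gene are the shortest set, at a median of 104.5 nt.

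The headers do not say which genotype is the numerator of the fold change. A negative value was taken as lower m6A in Mettl3-deleted cells, as is likely, since the gene lists deposited beside the tables hold the names with a negative peak: all 90 small RNA names with one in DP cells, and 133 of 134 in iNKT cells. In DP cells 1 of the 263 peaks was lower and 4 were higher at FDR under 0.05, where 0.743% of all DP peaks were lower and 0.483% higher. In iNKT cells 61 of 333 were lower (18.3%, interval 14.5 to 22.8%) and 23 higher (6.91%, interval 4.65 to 10.2%), where 19.8% and 5.84% of all iNKT peaks were. The median log2 fold change was 0.07 in DP cells, against 0.0 for all peaks, and -0.64 in iNKT cells, against -0.98. The shares called were thus near the background in iNKT cells, and in DP cells they rest on 5 peaks.

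**Figure D2:**
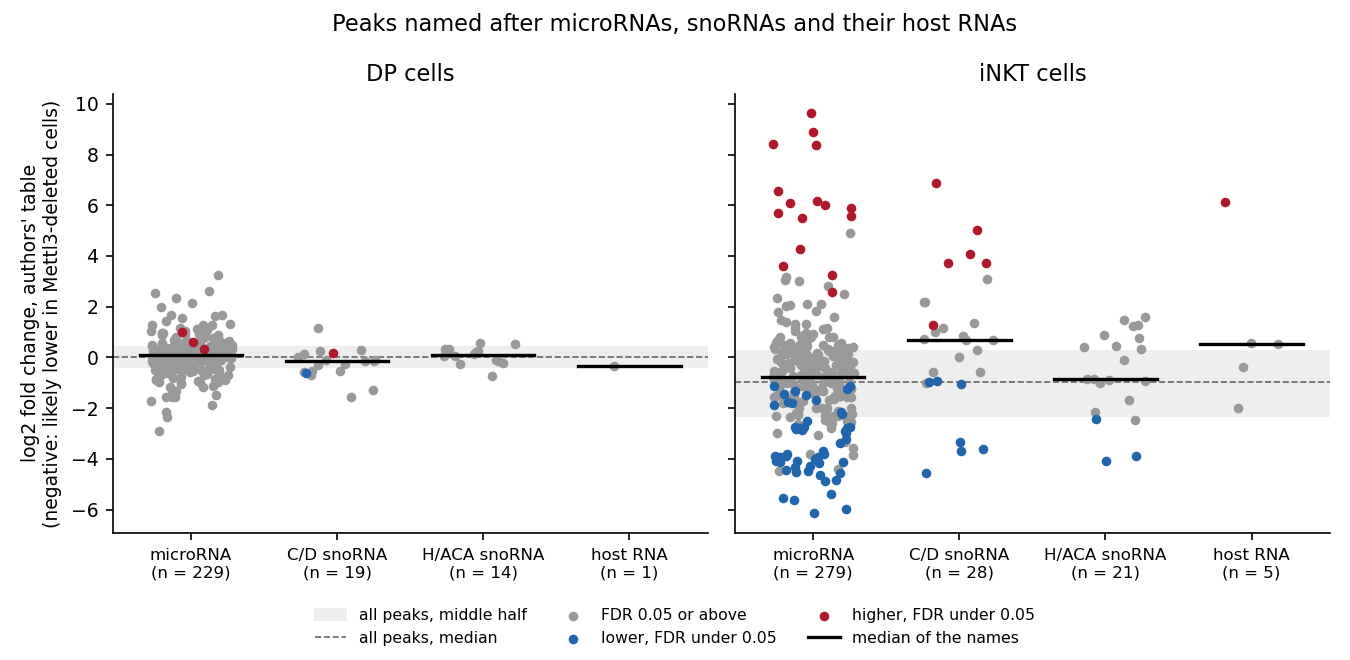
Each point is 1 peak, placed by the kind of RNA in its name and by the log2 value of the authors' deposited table. Blue and red points passed FDR 0.05, black bars are medians, and the dashed line and grey band are the median and quartiles of all peaks. DP peaks gather near 0, while iNKT peaks reach from -6.15 to 9.62.

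By kind of name in iNKT cells, 51 of 279 microRNA-named peaks were lower and 16 higher, with a median log2 fold change of -0.77. For C/D snoRNA names the counts were 7 lower and 6 higher of 28, with a median of 0.7. For H/ACA names 3 were lower and 0 higher of 21, with a median of -0.83. Of these 21 peaks 12 were those listed as Snora30 in Srcap, none of which passed. Of all iNKT peaks 19.8% were lower and 5.84% higher, with a median of -0.98. The 95% intervals of the medians were -0.58 to 1.34 for the C/D names and -1.08 to -0.54 for the microRNA names, and treat peaks of 1 host as separate. The C/D peaks were also shorter, at a median of 118 nt against 181 nt.

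The 5 DP peaks that passed in the authors' deposited table lay in 5 genes. The peak named Snord57, at chr2:130277847-130278416 in the 3′ UTR class, covered Snord57 and lay in Nop56, a core protein of the C/D snoRNA particle. It fell by 0.621 on the log2 scale (FDR 0.013), and the next peak in Nop56 under that name had -0.0892 (FDR 0.65). The peak named Snord82 lay in exons of Ncl, the gene of the nucleolar protein nucleolin, and rose by 0.165 (FDR 0.023). The peak named Mir6957 lay in Grap2, the adaptor GADS of T cell receptor signalling, and rose by 0.313 (FDR 0.042). Of the other two, the peak named Mir6921 in Rai1, a chromatin-associated regulator of transcription, rose by 0.6 (FDR 0.029) and the one named Mir7021 in Prdm2 by 1.0 (FDR 0.00019). Only the Prdm2 peak reached a 2-fold change, and none of these 4 higher peaks covered its small RNA.

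The DP peaks were set beside those of the iNKT table by overlap, and 1 shared base was enough for a pair. On the same strand, 116 DP peaks (44.1%) overlapped 137 iNKT peaks (41.1%) with a small RNA name, in 147 pairs. Over all peaks the shares were 36.4% of DP and 42.7% of iNKT peaks. Where at least 50% of the shorter peak had to be shared, 103 of the 116 DP peaks remained. In the pairs the log2 fold change was negative in 50 (34%) in the DP table and in 113 (76.9%) in the iNKT table, with medians of 0.18 and -1.34. Of all peaks, with or without a partner, 49.7% were negative in the DP table and 68.6% in the iNKT table, with medians of 0.0 and -0.98. The same values over all pairs were not computed, so the contrast is not shown to be particular to these names. A peak with several partners counts once in each pair. Of the pairs, 52 had an iNKT peak that was lower and 2 one that was higher. The higher one in Rpl23a shared only 1 nt with its DP peak. Among all DP peaks with a partner, 40% had a lower iNKT one and 2.9% a higher one. No DP peak in a pair was lower, and the 1 lower DP peak, in Nop56, had no partner.

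The 4 higher DP peaks each had a partner. In iNKT cells the partner in Ncl had -4.55 (log10 FDR -434), that in Grap2 -3.69 (FDR 3.4e-09) and that in Rai1 -2.16 (FDR 6.9e-06), all lower, while the partner in Prdm2 had -0.175 (FDR 0.72). Among all higher DP peaks, 56 of 65 had an iNKT partner, and 36 of these 56 (64.3%) had one that was lower and 8 (14.3%) one that was higher. Among all lower DP peaks with a partner, 28 of 37 (75.7%) had a lower one and 1 a higher one, and among all DP peaks with a partner the shares were 40% and 2.9%. The difference between the cell types was not tested, because no value per library was at hand and the tables differ in the number of libraries. The protocol may differ too. Over all peaks the median length was 241 nt in DP and 181 nt in iNKT cells, and the median fold enrichment 4.7 and 8.32.

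**Figure D3:**
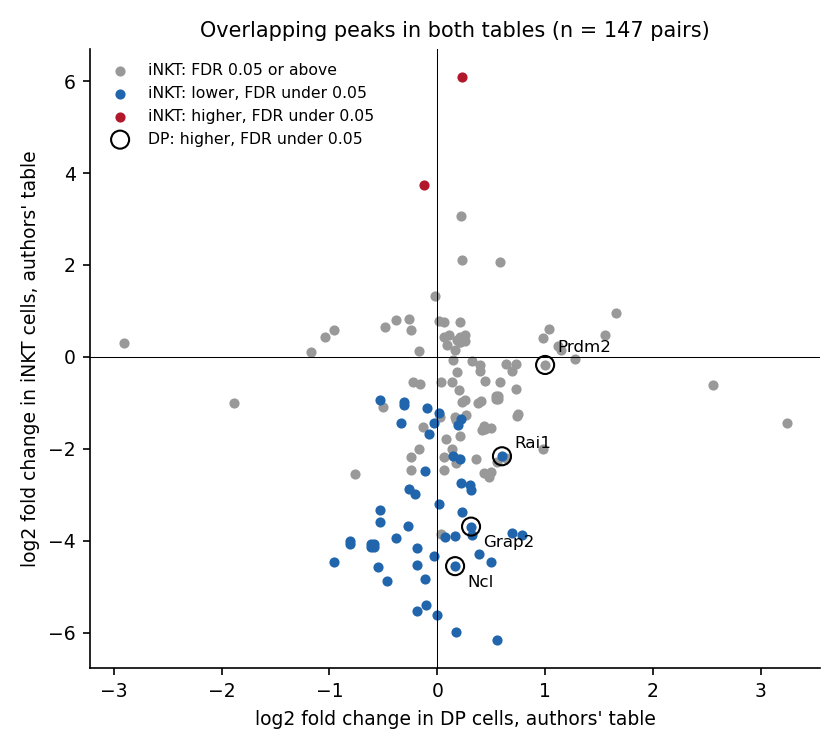
Each point is 1 of the 147 pairs of overlapping peaks, with the log2 value of the authors' deposited table for DP cells on the x axis and for iNKT cells on the y axis. Circles mark the 4 peaks that were higher in DP cells; those in Ncl, Grap2 and Rai1 lie among the lower iNKT peaks, at -4.55, -3.69 and -2.16.

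Among the 10 names with the strongest DP peaks in these pairs, Chd4 (listed as Mir7045) had -0.209 in the DP table and -2.99 in the iNKT table, Fam50a (Mir7092) 0.178 and -5.99, and Acin1 (Mir6948) -0.117 and -4.84. Brd3 (Mir7578), at 0.0382 and -3.86 (FDR 0.063), did not pass in either, nor did the strongest pair in Scaf1 (Mir7054, 0.201 and -2.22) or Ldlrad4 (Mir7219, 0.419 and -1.58).

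Some sites changed name between the tables. A peak in Acin1, a nuclear protein linked to splicing and apoptosis, was listed as Mir6948 with 0.139 in the DP table and overlapped one listed as Acin1 with -3.91 in the iNKT table. A peak in Ppm1h, a protein phosphatase, was Mirlet7i in the iNKT table (-2.49) and Ppm1h in the DP table (0.2). There were 11 overlapping pairs with different names. One of them, in Rpl23a, a protein of the large ribosomal subunit, shared only 1 nt: the DP peak listed as Snord4a (-0.122) and the iNKT peak listed as Snord42b (3.73) are neighbours rather than 1 site.

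The 61 lower iNKT peaks of the authors' deposited table lay in 46 genes under 46 names, 58 of them in protein-coding genes. Their log2 fold changes ran from -6.15 to -0.937 with a median of -3.68, and 39 were in a 3′ UTR, 20 in other exons and 2 in a 5′ UTR. Their median length was 270 nt. The lowest was in the 3′ UTR of Tnfaip8l2, a regulator that restrains immune activation, where a peak of 413 nt with a fold enrichment of 121 fell by 6.15 (FDR 1.6e-32). The table called it Mir8099-2, while RefSeq puts Mir8099-1 on this chromosome, 542 nt away, and Mir8099-2 on chromosome 12. The mature sequence of both copies is the same and is printed among the seed groups below.

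In the authors' deposited iNKT table, 2 peaks listed as Mir7023 lay in Pik3cd, the catalytic subunit p110 delta of phosphoinositide 3-kinase. They fell by 2.79 (FDR 2.5e-56) and 2.22 (FDR 1.6e-08). Under its own name Pik3cd had 3 iNKT peaks, 1 lower and 1 higher. In Lat, the membrane adaptor of the receptor, 2 of 3 peaks listed as Mir7058 fell by 2.84 (FDR 1.9e-05) and 1.12 (FDR 0.011), and the other had -1.07 (FDR 0.16). In Grap2, 2 of 4 peaks listed as Mir6957 were lower, at -3.87 (FDR 0.011) and -3.69, and the others had -1.31 and -0.0599. Of 4 peaks listed as Mir3473f in Bcl2, the inhibitor of apoptosis, 1 fell by 4.12 (FDR 0.044) and the others had -2.97 to -1.53.

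The exon peaks in Rest, a repressor of neuronal genes, listed as Mir5098, fell by 4.32 (FDR 2.3e-09) and 3.82 (FDR 0.0043), while its other peak had -0.313 (FDR 0.76). The peak listed as Mir7045 in Chd4, the helicase of the NuRD complex, fell by 2.99 (FDR 1.6e-34), and that listed as Mir1192 in Klf9, a Krüppel-like factor, by 2.75 (FDR 0.026). In Klf7, of the same family, 1 of 4 peaks fell by 3.92 (FDR 0.0052) and the others had -0.926 to 0.485. In Nrf1, a transcription factor, 1 of 2 peaks fell by 3.2 (FDR 0.0032) and the other had 0.791 (FDR 0.76), and in Tet3, a DNA demethylase, 1 of 2 fell by 2.9 (FDR 0.049) and the other had 0.705 (FDR 0.57). In Acin1 the peak listed as Mir6948, of 811 nt, fell by 4.84 (log10 FDR -434).

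The other lower iNKT peaks are given by the log2 value of the authors' deposited table. Among the lowest were those in Smap2, a regulator of vesicle traffic (listed as Mir7015, -5.61), Atg2a, a lipid carrier of autophagy (Mir194-2, -5.39), Cwc25, a splicing factor (Mir8102, -4.87), and Pde4d, a cyclic AMP phosphodiesterase (Mir1904, -4.62). Opposite-strand peaks in the non-coding 4930470G03Rik (Mir1896) had -4.57 and -4.52. Next came Elof1 (Mir7084, -4.46), Kansl3 (Mir6898, -4.28) and overlapping peaks on the same strand in Fam78a (Mir7674, -4.13 and -4.07). They were followed by Rnf19a (Mir8097, -4.07 and -4.01), Fam110a (Mir1953, -3.89) and Triobp (Mir6956, -3.79). Peaks with snoRNA names lay in Tcp1, a subunit of the chaperonin (Snora20, -4.1), Aggf1 (Snora47, -3.88) and 2410002F23Rik (Snord88a, -3.68). The smaller falls were in Scaf1 (Mir7054, -2.88), Gm5914 (Mir1966, -2.77), Zmiz2 (Mir7651, -2.74), Alkbh1 (Mir3068, -2.74), Cyfip2 (Mir7239, -2.49), Gtf2f2 (Snora31, -2.42), Ddx39a (Mir1668, -1.47), another site in Wasf2 (-1.34) and Bin2 (Mir6961, -1.23). The peaks in Gtf2f2 and Aggf1 lay 49292 and 20633 nt from the snoRNA that names them.

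Prdm2 showed how values vary within 1 host. Of its 8 iNKT peaks 4 were lower. A peak with a block that starts 1 nt downstream of the Mir7021 hairpin, with a fold enrichment of 131, fell by 5.53 (FDR 5e-72). Its other blocks lay upstream of the hairpin, at -6134 to -6024 and -26077 to -25956 nt, and the value is that of the whole peak. Those starting 1054 and 1473 nt downstream were lower, at -4.16 (FDR 0.0046) and -3.94 (FDR 1.5e-06), as was the one starting at 2012 nt, at -1.44 (FDR 0.00085). The peak with the highest enrichment of all iNKT peaks with a small RNA name, 219, lay 28320 nt downstream and had -1.77 (FDR 0.73). In the DP table the 5 peaks nearest to the hairpin had -0.384 to -0.0343, none past the threshold, and the sixth was the one that rose.

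**Figure D4:**
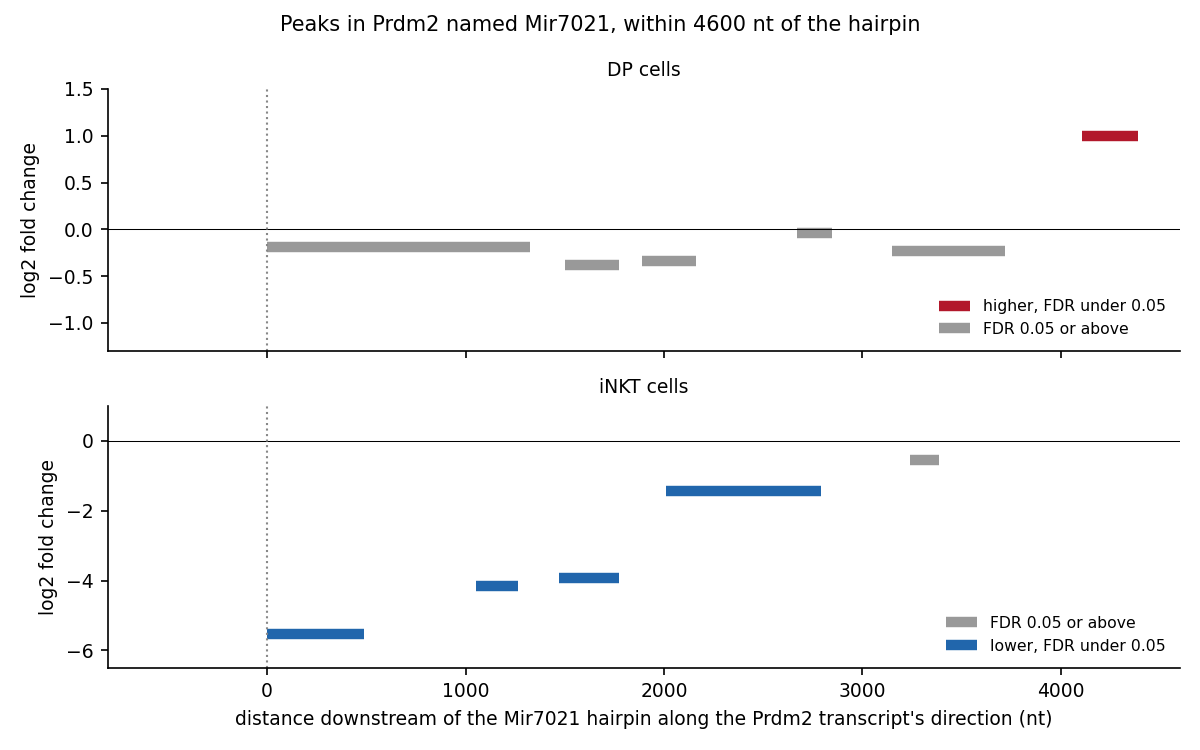
Bars show the exonic blocks of peaks named Mir7021, by their distance in nt downstream of the hairpin (x axis) and by log2 value of the authors' deposited tables (y axis, with its own scale in each panel). Each block is drawn at the value of its whole peak, and blocks farther from the hairpin are not shown. In iNKT cells (lower panel) the 4 blocks nearest the hairpin lie at -5.53, -4.16, -3.94 and -1.44, while in DP cells (upper panel) the block that passed, at 1.0, is the farthest shown.

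Mir7021 was 1 of 10 microRNAs whose hairpin was followed directly, with no base between, by an exonic block of a peak on the same strand. Such blocks were in 7 DP peaks and 6 iNKT peaks. None of the 7 passed in DP cells, where 0.743% of all peaks were lower and 0.483% higher. In iNKT cells 4 of the 6 were lower and 0 higher, where 19.8% and 5.84% of all peaks were. Those 4 peaks were 387 to 811 nt long, against a median of 181 nt for all iNKT peaks, and the part of length was not tested. Besides Prdm2, the 4 lay in Acin1, Fam50a (listed as Mir7092, -5.99, FDR 2.5e-28) and Wasf2, an activator of actin assembly (listed as Mir7017, -1.68, FDR 1.7e-06). A mirtron is an intron that itself folds into the microRNA hairpin, so that its 3p arm ends at the splice acceptor, whose last bases are AG. The 3p sequences of these 4 show the arm's end:
miR-7021-3p: uCUCUGUGcuucugcuccuuag
miR-7092-3p: uGUUCUUUguuuuguuugccuuag
miR-7017-3p: aCCCUGCUccucucccuccag
miR-6948-3p: uGUCCUUCcugucugaccaca
The letters AG end the 3p sequence in 8 of the 10, in 60 of 130 listed 3p sequences over all the names (46.2%) and in 198 of 731 mouse 3p sequences (27.1%). The 10 were picked by an exonic block that begins right after the hairpin, where a splice acceptor would lie. Their share is thus tied to that choice, and whether they are mirtrons was not tested. That of miR-6948, in Acin1, does not end so.

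The iNKT peaks that covered the named gene differed in direction from the others. Of the 28 counted on the same strand 6 were higher and 0 lower, with a median log2 fold change of 0.68. Of the other 305 peaks 17 were higher and 61 lower, with a median of -0.83. The 28 lay over microRNAs (12), snoRNAs (13) and, for the rest, host RNAs. For 13 of the 28 the strand of the named gene was not listed, so it was not checked. Counted on either strand there were 33, with 7 higher and 0 lower. Length moved with this: the 28 had a median of 104.5 nt and the 305 of 181 nt. Of all iNKT peaks up to 130 nt, 2.76% were lower and 6.31% higher, with a median of 0.0, and of the 102 such peaks with a small RNA name 6 were lower and 12 higher. The part of length in the difference was not tested.

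Among the 6 higher peaks, 3 were named for microRNAs. In Glul, the gene of glutamine synthetase, a peak of 111 nt coincided with Mir8114 in the 5′ UTR and rose by 3.59 (FDR 7.9e-05). A peak of 299 nt over the same place on the opposite strand rose by 4.28 (FDR 1.3e-15), so the strand of this signal is uncertain. In Oaz1, the antizyme that curbs polyamine synthesis, a peak of 60 nt covered all of miR-1982-3p and none of the 5p arm, and rose by 5.68 (FDR 5e-40) at a fold enrichment of 1.5. The peak of 123 nt over Mir6236, within the non-coding gene Gm39429, rose by 8.36 (FDR 5e-70).

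The other three were named for C/D snoRNAs. In Snhg1, a long non-coding host of snoRNAs, a peak of 301 nt over Snord22 rose by 1.27 (FDR 1.3e-07), and one of 126 nt inside it that coincided with the snoRNA had 0.717 (FDR 0.14). In 2410006H16Rik, a non-coding gene, a peak of 72 nt coincided with Snord49a and rose by 4.07 (FDR 0.015), while the peak over its neighbour Snord49b had 1.18 (FDR 0.76). In Rpl23a a peak of 60 nt over Snord42b rose by 3.73 (FDR 9.3e-07).

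In 16 iNKT peaks, peak and small RNA shared at least 80% of the longer of both; in DP cells 1 did, Mir6340 in Rab22a (-0.469, FDR 0.72). Besides Mir8114, Snord49a and Mir6236, which rose, the 16 included snoRNAs of ribosomal protein genes: Snord100 in Rps12 (0.678), Snord32a in Rpl13a (0.862) and Snora64 in Rps2 (0.348), each with FDR 0.76. They also included Mir8119 in Lck, the kinase that starts T cell receptor signalling (-0.637, FDR 0.76), Mir5125 in Srrm2, a splicing factor (-0.305, FDR 0.76), and Mir671 in Chpf2 (-1.51, FDR 0.76). Mir6385 in Pml, the organiser of nuclear bodies, had 3.0 (FDR 0.66). Dgcr8, which with Drosha cuts microRNA hairpins, holds Mir1306 in an exon. The iNKT peak over Mir1306, of 270 nt, had 0.12 (FDR 0.76), and the DP peak ending 147 nt away had -0.166 (FDR 0.62).

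Further iNKT peaks over the named gene that did not pass were Mir8115 in P2rx7 (1.38), Snord68 in Rpl13 (0.0) and Snord13 in no host (1.0). In the authors' deposited DP table the peaks over a microRNA were longer, at a median of 300 nt against 117 nt in the iNKT table. They were Mir7578 in Brd3, a reader of acetylated histones (0.0382), Mir6935 in Actg1, the cytoskeletal actin (0.0484), Mir7654 in Arglu1 (0.0668), Mir5114 in Scd2, a fatty acid desaturase (0.301), Mir671 in Chpf2 (0.437), Mir7672 in Pde12 (0.563) and Mir6357 in Poli (-1.15), besides Mir6340, and none passed. The only other snoRNA covered in DP cells was Snord4a in Rpl23a (-0.119, FDR 0.61).

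For 3 small RNAs with lower peaks nearby, the peak over them was set beside those peaks in the authors' deposited iNKT table. In Rpl13a the peak over Snord32a had 0.862, while 2 overlapping peaks in the 3′ UTR class, listed as Snord35a, fell by 0.987 (FDR 4e-46) and 1.05 (FDR 4e-36). Another iNKT peak in Rpl13a, under the gene's own name, rose by 6.75 (FDR 1.6e-55). The peak over Snord89, in no RefSeq host, had 0.678. Under the same name 2 overlapping peaks, 2955 and 2964 nt away in Rnf149, were lower, at -3.6 and -3.32. In Fbrs the peak over Mir7060 had 0.222 (FDR 0.76), and peaks 323 and 621 nt from it were lower, at -1.87 (FDR 0.04) and -4.45 (FDR 2e-12). Neighbours were not always lower. In Rps2 the peak over Snora64 had 0.348, and a peak under the gene's own name rose by 3.19 (FDR 5e-69). In Chpf2 the 5 iNKT peaks listed as Mir671, over it or nearby, had -2.53 to -1.51, and none passed. The difference between such neighbours was not tested.

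**Figure D5:**
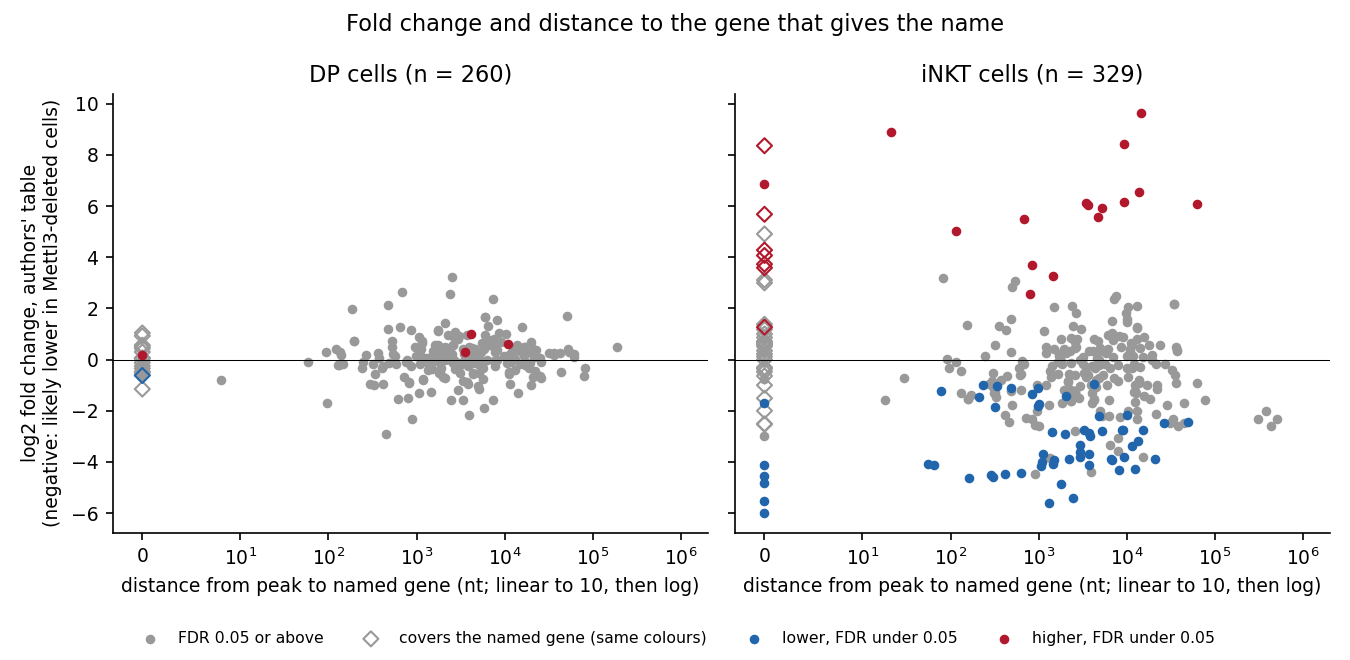
Each point is 1 peak by its distance in nt to the gene that names it (x axis, linear to 10 nt and logarithmic beyond) and its log2 value of the authors' deposited table (y axis); diamonds are peaks that cover the named gene on either strand. A filled point at 0 is a peak whose span encloses the gene in an intron. In iNKT cells (right) the 7 coloured diamonds are all red, and the blue points, the 61 lower peaks other than the 1 unmatched name, are all filled.

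The remaining 16 higher iNKT peaks of the authors' deposited table, which covered their named gene on neither strand, were 60 to 208 nt long. The highest value, 9.62 (FDR 6.3e-17), was listed as Mir1195 and overlapped no gene in RefSeq's table. In Kctd12 a peak of 151 nt listed as Mir5130 rose by 8.89 (FDR 1e-13), while a pair at 1 place on opposite strands fell by 1.8 and 1.75. Hosts of the translation machinery were Eef2, elongation factor 2 (listed as Snord37, 3.71, log10 FDR -320), and Rpl37 (Snord72, 6.86, FDR 1e-12). Gas5, a non-coding snoRNA host, had a peak listed as Snord47 that rose by 5.04 (FDR 1.5e-08). The rest, all listed under microRNA names, were in Msi2, an RNA-binding protein (Mir378b, 8.41), Flot2 (Mir144, 6.56), Sppl2a (Mir3473g, 6.17), Rngtt, the messenger RNA capping enzyme (Mir8118, 6.08), Sh3pxd2a (Mir6995, 6.03), R3hdm1 (Mir128-1, 5.91), Pdxk (Mir6908, 5.58), Sidt2 (Mir7087, 3.26) and Cherp (Mir7068, 2.58). Under their own names Cherp and Sppl2a each had 1 iNKT peak, which was lower, and Eef2 had 1, which was higher. In Ltb, the gene of lymphotoxin beta, a peak of 60 nt listed as Mir6973a rose by 5.5 (FDR 1.6e-66) and one of 298 nt fell by 1.12 (FDR 7.9e-15).

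Peaks named for the host RNAs themselves were few in the authors' deposited tables. In DP cells Snhg14 had -0.348 (FDR 0.73). In iNKT cells Snhg1 had -0.363, Snhg14 0.515, Snhg17 0.585 and Mir100hg -2.0, each with FDR 0.76. The peak listed as Snhg3 rose by 6.13 (FDR 1.8e-06), but it lay in the 3′ UTR of Phactr4, 3462 nt from Snhg3.

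The seeds of the names showed few families. Of 305 seeds, 16 were shared by more than 1 name. The miR-15 and miR-16 family, which restrains proliferation in lymphocytes, gave the largest group, 4 names with seed AGCAGCA, and the miR-181 family, which tunes T cell receptor sensitivity in thymocytes, another. A further group of 3 names shares CACCCUG, and both copies of Mir8099 have 1 sequence:
miR-15b-5p: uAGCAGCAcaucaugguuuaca
miR-16-5p: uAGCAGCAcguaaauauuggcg
miR-195a-5p: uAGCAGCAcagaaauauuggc
miR-181a-5p: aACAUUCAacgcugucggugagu
miR-181b-5p: aACAUUCAuugcugucgguggguu
miR-7018-3p: uCACCCUGcugccggcuugcag
miR-7023-3p: uCACCCUGucugcgccccucag
miR-7068-3p: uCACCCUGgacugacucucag
miR-8099: cCAAGGCGugggaaagguugu
Peaks listed under the first group lay in Smc4, a condensin subunit (Mir15b, DP, -0.23), in the non-coding Dleu2 (Mir16-1, DP, -0.939) and in 0610010K14Rik (Mir195a, iNKT, -0.426 and -1.3), and in Gm7858 (Mir6342, iNKT, -2.32), and none passed. Those under miR-181 names lay in no protein-coding gene and had 0.316 to 0.815 in DP cells and -1.58 in iNKT cells. The CACCCUG group did not move together in iNKT cells: the Mir7023 peaks in Pik3cd were lower, the Mir7068 peak in Cherp was higher (FDR 0.0032) and the Mir7018 peak in Hspg2 had -1.32 (FDR 0.76). None of these peaks covered its microRNA.

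The highest fold enrichments in the DP table were 47.7 in Trmt1l (listed as Mir7682), 29.8 in Mex3a (Mir1905), 28.6 in Zscan26 (Mir1896) and 28.2 in Wars2 (Mir6481), with log2 fold changes from -0.507 to 0.485 and none past the threshold. In iNKT cells, after the Prdm2 peak at 219, they were 157 for Mir704, in no RefSeq gene, and 135 and 134 for opposite-strand peaks named Snord3a, the U3 snoRNA, with -0.578 and -0.577 (FDR 0.62). Fold enrichment of weak peaks carried little information: 6 iNKT peaks with these names, and 208 peaks in all, had the same pair of values, a fold enrichment of 31.3 and a log10 peak p of -3.19.

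Genes that make and use these small RNAs also had peaks under their own names. In DP cells 0 of the 40 peaks in 11 genes of microRNA maturation and function passed, and 0 of 11 in 7 genes of the snoRNA particles. Of the 14 DP peaks in 10 snoRNA host genes 2 were lower and 0 higher, in Hspa8, a chaperone (-0.422, FDR 0.03), and Tpt1 (-0.314, FDR 0.00023), where 0.743% of all DP peaks were lower. In iNKT cells 13 of 34 peaks of the first list were lower and 2 higher (38.2% and 5.88%, median -1.26), where 19.8% and 5.84% of all iNKT peaks were. The lower ones lay in 6 of the 13 genes with a peak, most of them in Tnrc6b and Tnrc6c. The 6 genes were Drosha, Tut7, which adds uridines to microRNA precursors, Tnrc6a, Tnrc6b and Tnrc6c, the scaffolds of silencing, and Hnrnpa2b1. The last is an RNA-binding protein that has been described as a reader of m6A in primary microRNAs. The higher peaks were in Ago4 and Tnrc6b. No peak in Dicer1, Ago1, Ago2, Tut4, Ddx5 or Ddx17 passed. Of 14 peaks of the second list 8 were lower and 0 higher (57.1%, median -2.31), in Fbl, the C/D methyltransferase, Gar1, an H/ACA subunit, Nolc1, Rrp9 and Znhit6. In the list of snoRNA host genes 3 of 13 were lower (23.1%), in Ncl and Wdr43, and 3 higher (23.1%), in Eef2, Rpl13a and Rps2. The peak listed as Snord11 in Nop58, the other core C/D protein beside Nop56, fell by 0.937 in iNKT cells (FDR 0.00039) and had -0.531 in DP cells (FDR 0.28).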

How the data were processed

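HOMER 4.9.1, RSEM 1.3.0, STAR 2.6.0a, Trim Galore 0.6.5 and FastQC 0.11.5 were used on mm10, per the submitters' processing notes. The sources used here do not give the peak caller's settings, whether replicates were pooled, or whether both cell types had the same protocol. Each deposited table gives, per the file headers, a p-value for each peak, the fold enrichment (a ratio), the log2 fold change between genotypes, and scores that are log10 p and log10 FDR values.

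Rows that repeated an interval were kept once (5 DP and 24 iNKT rows removed, 0 of them with a small RNA name). Names were matched by regular expression, and hosts by at least 1 shared exonic base with RefSeq GRCm38.p6 genes, ranked by the annotation's gene, strand and biotype (Python 3.11.15, pandas 2.3.3, SciPy 1.17.1). Calls are the authors' FDR of the difference under 0.05. No test was made, since the tables hold 1 value per peak and comparison, and the depth is unknown. The overlap code was tested on 400 simulated peaks and gave 400 right answers. The peaks named are those past that FDR, host RNA names, peaks over their small RNA, the 5 highest enrichments per table and the 10 strongest names with peaks in both tables. A few of these peaks are not reported here. Members and lists were chosen with earlier results of these data known.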

Additional observations from a re-analysis of the deposited data

How the results depend on the processing

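No paired analysis was possible because the tables hold no values per library. In DP cells the counts of 1 lower and 4 higher peaks became 0 and 1 at FDR 0.01, and likewise 0 and 1 when a 2-fold change was also asked. The DP count of peaks over the named gene, 10, became 26 with introns inside a peak's span counted and 17 on either strand. The 6 higher iNKT peaks over the named gene became 3 where at least 80% had to be shared, 7 on either strand and 5 at FDR 0.01. These alternatives for that count were chosen after seeing the data, as was counting opposite-strand pairs once. All other alternatives kept each count within 1.5 times and each median within its 95% interval: iNKT lower counts ran from 47 to 68 and higher counts from 19 to 26, and the shared DP peaks from 103 to 116. Of 84 iNKT peaks that passed, 68 passed at FDR 0.01. Peaks on opposite strands of 1 place made 10 pairs in DP cells, 6 with the same sign, and 12 in iNKT cells, all with the same sign. Overlapping peaks on the same strand, as in Fam78a, were counted separately in every setting. The depth of the libraries was not known, so a peak absent from a table was not read as absence of m6A.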
